A study of Canis lupus familiaris with 12 samples.

Results

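The genes described here are those that code for the proteins of the cytosolic ribosome. They were taken from the mRNA table by symbol: RPL or RPS followed by a digit or the letter A, RPLP0 to RPLP2, and RPSA, without the RPS6 kinases. The rule found 62 entries with 57 different symbols, of 19856 gene entries in the table. Of these, 36 belong to the large subunit (RPL) and 25 to the small subunit (RPS). The remaining entry, RPS19BP1, fits the naming rule, but codes for a binding partner of RPS19 and not for a subunit protein. RPL11, RPL26, RPL37, RPS27 and RPS27A each have 2 entries, which are told apart below by their chromosome. Of 81 protein-coding symbols that the same rule finds in the RefSeq gene names of the dog (assembly UU_Cfam_GSD_1.0), 25 were not analysed here, among them RPL4, RPL6, RPLP2, RPL22 and the muscle paralog RPL3L.

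Total RNA of the right atrium was sequenced after removal of ribosomal RNA in 3 dogs of the pacing group and 3 dogs of the control group. Dogs of the pacing group had a pacemaker that stimulated the right atrium for 14 days at 500 bpm and 5 V, a model of atrial fibrillation. Dogs of the control group had the same operation and pacemaker without stimulation. All were mongrel dogs of either sex, whose sex and age per library are not given in the sources used here, and the atrium was taken as a whole tissue with all its cell types. Each value is an FPKM, the fragments that the authors assigned to a gene, scaled to its length and to the mapped fragments of the library. The table names the libraries P1, P2 and P3 (pacing) and C1, C2 and C4 (control). The sample labels use other names, and the sample titled C4 there is a paced one. The library C4 was counted as control by its column name, and the comparisons of ribosomal protein entries and of gene lists are given with and without it.

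Every cytosolic ribosome is built from a small subunit, which reads the mRNA, and a large subunit, which joins the amino acids. Their proteins are made in near equal amounts. Most of their mRNAs begin with a run of pyrimidines (the 5′ TOP motif), through which mTORC1 signalling regulates their translation. In heart muscle, growth under load is accompanied by the making of new ribosomes, which also needs assembly factors in the nucleolus and RNA polymerases I and III.

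The library C4 stood apart before any comparison. The summed FPKM of 10 atrial cardiomyocyte markers was 7960 to 16001 with pacing and 68.7 to 7181 in control dogs, where C4 gave the lowest value. The summed FPKM of 7 ventricular cardiomyocyte markers was 376 to 1036 with pacing and 318 to 8444 in control dogs, where C4 gave the highest. NPPA, the atrial natriuretic peptide, had 7.78 FPKM in C4, and MYL2, the ventricular myosin light chain, had 2331 FPKM in C4. The defining atrial markers were thus nearly absent from a library labelled atrial. Depth is not stated in the sources used here and was not estimated from the columns headed Counts. The mitochondrially encoded mRNAs held 28.0% to 38.8% of the summed FPKM with pacing and 36.2% to 48.1% in control dogs. MT-ATP8, ATP6 and COX3 were listed at 0 in all pacing libraries, and COX1 was listed at 0 in P2, P3 and C4. Sums over all genes therefore do not hold the same genes in every library.

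The ribosomal protein mRNAs did not differ detectably between the pacing and control groups. Of the 62 entries, 55 had a mean of 1 FPKM or more and entered the test with 11583 genes in all. None of the 55 passed an adjusted p of 0.05 (limma on log2(FPKM + 1), Benjamini-Hochberg over all genes tested; smallest adjusted p = 0.879), beside 0.0259% of all genes tested. The genes that passed were 3, MT-ATP8, ATP6 and COX3. At an unadjusted p under 0.05, 0 of the 55 were higher in pacing, beside 2.52% of all genes tested, and 2 were lower, beside 3.02%. The 3 pacing values lay above all 3 control values for 1 entry, beside 4.9% of all genes, and below them for 3 entries, beside 6.14%. Log2 fold changes (pacing over control) were positive for 21 of the 55 (38.2%), against 46.7% of all genes tested. Their median was −0.03, as it was for all genes tested, and 46 of the 55 lay within 0.25 of 0. The 95% interval of 46 of the 55 lay inside a 2-fold change in either direction, so a change of that size was outside the interval for these entries. In bulk tissue, fewer cells of a type and less RNA per cell cannot be told apart.

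The sign of these small values followed the scaling. When the libraries were centred on their median gene, 30 of the 55 entries had a positive log2 fold change. After quantile normalization the number was 34, and after rescaling every library to the same summed FPKM it was 46. The rescaling also moved the median of all genes tested to 0.18 and that of the members to 0.19. The difference between the median of the members and the median of all genes stayed between −0.05 and 0.05 on the log2 scale over every alternative run.

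**Figure D1:**
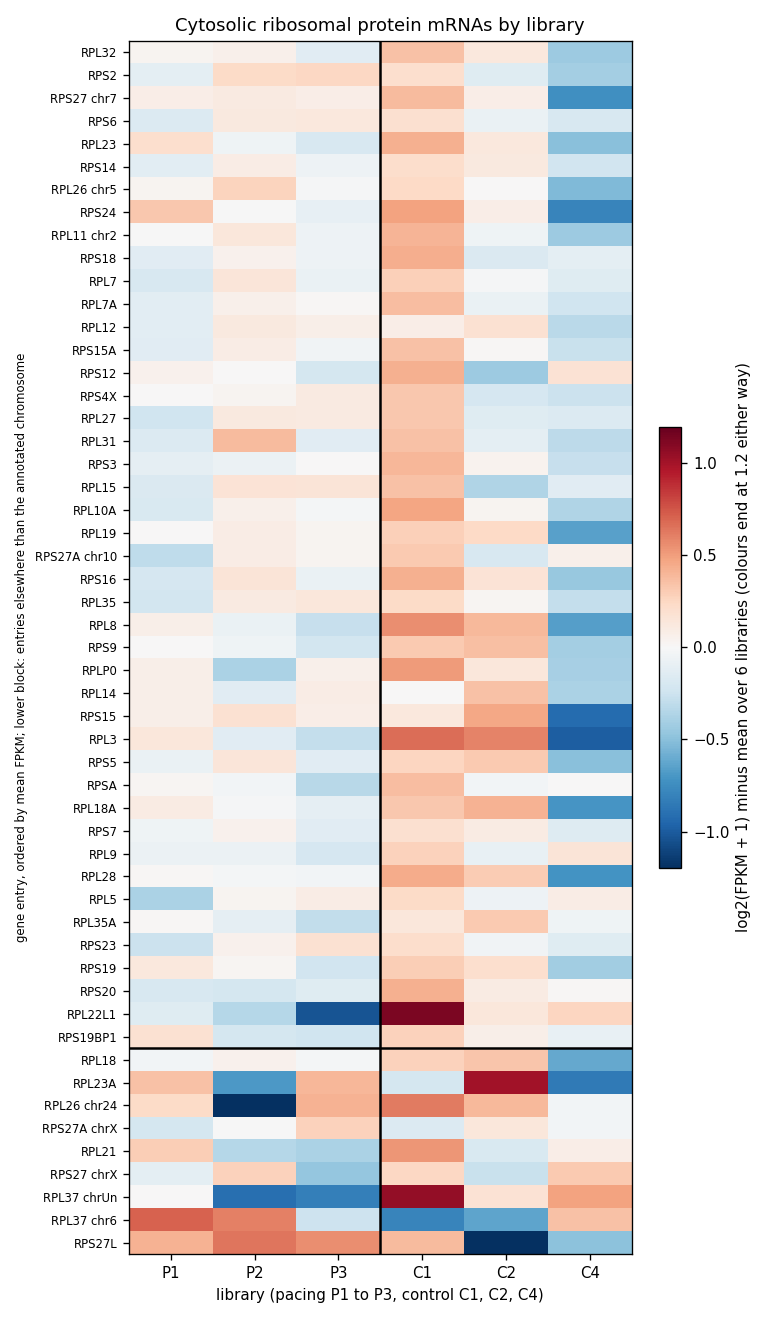
Level of the tested entries by library, 2 of the 55 left out, as log2(FPKM + 1) minus its mean over the 6 libraries, with pacing libraries on the left of the vertical line and control libraries on the right. Red is above and blue below the entry's own mean, rows run from the highest to the lowest mean FPKM, and the 9 rows under the horizontal line are entries that lie elsewhere than the annotated chromosome. Over all 55, C1 was the highest library for 38 entries (69.1%), beside 27.1% of all genes tested. C4 was the lowest for 34 (61.8%), beside 43.3%.

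The 2 subunits gave like values. Of 23 tested large subunit entries on their annotated chromosome, 8 had a positive log2 fold change, with a median of −0.03. Of 22 such small subunit entries, 8 had a positive one, with a median of −0.06. Entries on the annotated chromosome varied less between paced dogs than between control dogs. Their coefficient of variation had a median of 10.0% with pacing and 25.1% in control dogs, or 14.5% for C1 and C2 alone. Their mean FPKM had a median of 328 and ran up to 1196.

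The most abundant entry was RPL32, a large subunit protein often used as a reference gene, at chr20:5727169-5756140 (canFam3). RPL32 had 1207, 1232 and 1075 FPKM in pacing and 1504, 1285 and 874 FPKM in control, a log2 fold change of −0.03 ± 0.28 (SE). The pacing values lay inside the range of the control values, whose ends were C1 and C4. RPL23, on the face that meets the small subunit, had 770, 648 and 587 FPKM in pacing and 901, 733 and 472 FPKM in control, again within the control range. RPL7 had 498, 629 and 540 FPKM in pacing and 692, 563 and 513 FPKM in control. RPL26 on chromosome 5 had 689, 808 and 668 FPKM in pacing and 795, 675 and 466 FPKM in control, and only P2 lay above all control values.

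RPLP0 forms the base of the stalk that recruits the elongation factors, and it too serves as a reference gene. RPLP0 had 246, 179 and 244 FPKM in pacing and 334, 258 and 177 FPKM in control, a log2 fold change of −0.17 ± 0.29 (SE). Every pacing value lay below C1 and C2 and above C4. RPLP1, the other stalk protein in the table, was listed at 0 in all 6 libraries. Its entry shares its locus on chromosome 27 with the calcium channel gene CACNA1C, while the RefSeq record of RPLP1 lies on chromosome 30.

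RPL3, a core protein near the peptidyl transferase centre, varied most among the abundant entries. RPL3 (chr10:25740007-25745431) had 212, 175 and 158 FPKM in pacing and 307, 291 and 96.9 FPKM in control. C1 and C2 were the highest libraries and C4 the lowest, so the groups overlapped through C4 alone. RPL8, which also lies near that centre, had the same order: 280, 252 and 220 FPKM in pacing and 394, 351 and 169 FPKM in control. With all 6 libraries the log2 fold changes were −0.19 ± 0.45 for RPL3 and −0.20 ± 0.34 for RPL8 (SE). RPL9 had 149, 148 and 136 FPKM in pacing and 190, 147 and 174 FPKM in control. RPL35A had 67.7, 62.1 and 54.5 FPKM in pacing and 73.6, 83.4 and 64.5 FPKM in control. For RPL9 and RPL35A the pacing values lay in the lower part of the control range or below it, and the groups overlapped. The locus given for RPL9 also holds LIAS, so its fragments may be divided uncertainly between them.

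In the small subunit, RPS2, at the mRNA entrance, was the most abundant entry. RPS2 had 1006, 1280 and 1298 FPKM in pacing and 1257, 992 and 827 FPKM in control, a log2 fold change of 0.23 ± 0.26 (SE). P2 and P3 lay above all control values and P1 did not. The locus given for RPS2 spans TBL3, RNF151, NDUFB10 and MEIOB as well. RPS6, the substrate of the S6 kinases downstream of mTORC1, had 668, 814 and 817 FPKM in pacing and 856, 711 and 656 FPKM in control. All 3 pacing values lay inside the control range, and the log2 fold change was 0.05 ± 0.23 (SE).

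RPS27 on chromosome 7 had 884, 902 and 883 FPKM in pacing and 1086, 881 and 501 FPKM in control, and the pacing values lay between C2 and C1. RPS15 had 225, 243 and 226 FPKM in pacing and 234, 294 and 112 FPKM in control. The low control value was again that of C4, and the groups overlapped. RPS19, which is mutated in human Diamond-Blackfan anaemia, had 38.6, 35.9 and 30.0 FPKM in pacing and 43.5, 40.8 and 26.2 FPKM in control. Its pacing values all lay between C4 and C2.

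Among the 55 tested entries, RPS20, RPL22L1, RPS27L and 1 entry of RPL37 had groups that did not overlap. RPS20, a protein of the head of the small subunit (chr29:7484296-7489691), had 24.9, 24.5 and 25.8 FPKM in pacing and 38.8, 30.7 and 28.9 FPKM in control. The pacing values were close together and all below the control values. The log2 fold change was −0.37 (95% interval −0.83 to 0.10; limma, unadjusted p = 0.103, adjusted p = 0.892).

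RPL22L1 is the paralog of RPL22, whose own protein binds RNA and represses RPL22L1 in the mouse. RPL22L1 (chr34:35299106-35300924) had 16.4, 14.3 and 8.40 FPKM in pacing and 41.3, 20.3 and 22.2 FPKM in control. The group means were 13.0 ± 4.15 FPKM in pacing and 27.9 ± 11.6 FPKM in control (SD, n = 3 each), and C1 stood well above the other control libraries. The log2 fold change was −1.02 (95% interval −1.86 to −0.18; limma, unadjusted p = 0.0238, adjusted p = 0.879), so it did not pass.

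RPS27L, a paralog of RPS27 that p53 induces in human cells, was low throughout. It had 2.77, 3.40 and 3.15 FPKM in pacing and 2.67, 0 and 1.01 FPKM in control, where C2 was listed at 0. The log2 ratio of RPS27L to RPS27, each with 1 FPKM added, was −7.88, −7.68 and −7.73 in pacing and −8.21, −9.78 and −7.96 in control. The difference of 0.89 had p = 0.1 in a 2-sided exact permutation test, the smallest that 3 libraries against 3 allow, and this was the 1 paralog pair with both genes measured. Its size rested on the library listed at 0 and on the amount added: the difference was 0.32 without C2, 1.23 without C4 and 2.06 with 0.1 FPKM added. Its locus on chromosome 26 also holds AP1B1, and the RefSeq record of RPS27L lies on chromosome 30. RPL10L, the paralog of RPL10 that is used in mouse sperm formation, was listed at 0 in all 6 libraries.

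**Figure D2:**
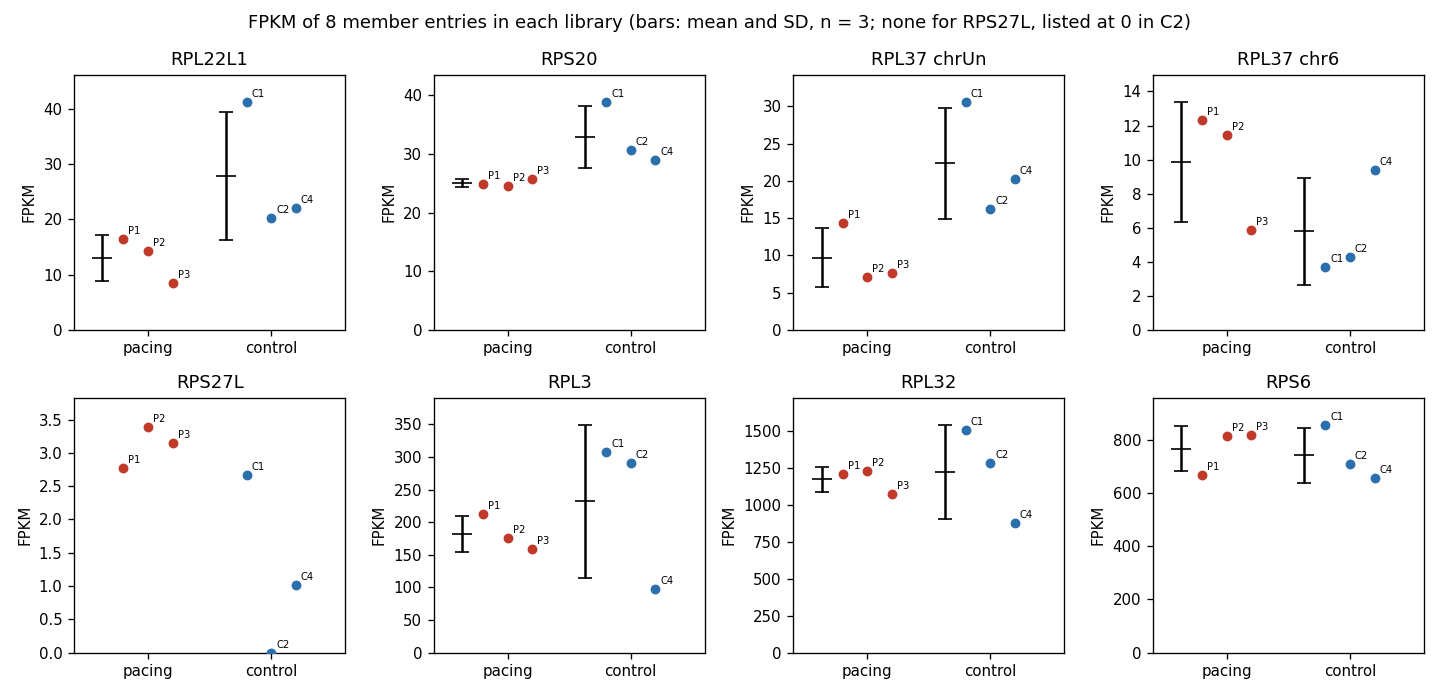
FPKM of 8 entries in each library on a linear axis from 0, with pacing (red) left of control (blue); horizontal bars with whiskers are means and SDs of 3 libraries, left out for RPS27L. The 3 pacing values lie below all control values for RPL22L1, RPS20 and the RPL37 entry on an unplaced scaffold, and above them for RPS27L, while for RPL3 and RPL32 the control libraries run from C1 at the top to C4 at the bottom.

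Several entries lay on a chromosome other than that of the RefSeq gene record of the same name, as processed copies of ribosomal protein genes do in mammalian genomes. Of the 62 entries, 47 lay on the annotated chromosome, 46 of them tested, and 15 lay elsewhere or had no such record, 9 of them tested. Tested entries elsewhere had a median of 28.3 FPKM, and reads of near-identical copies can be split between them and the parent, so their values are uncertain. The largest fold changes were among these. RPL37 on an unplaced scaffold had 14.3, 7.14 and 7.63 FPKM in pacing and 30.6, 16.2 and 20.3 FPKM in control, a log2 fold change of −1.14 (95% interval −1.95 to −0.34; limma, unadjusted p = 0.0119, adjusted p = 0.879). RPL37 on chromosome 6 (chr6:5819091-5819384) had 12.3, 11.4 and 5.84 FPKM in pacing and 3.71, 4.26 and 9.41 FPKM in control, a log2 fold change of 0.71 (limma, unadjusted p = 0.120). The 2 RPL37 entries thus had opposite signs, and neither lies on the chromosome of the RPL37 record. The locus given for the scaffold entry also holds H2AFV.

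RPL26 on chromosome 24 had 80.8, 21.5 and 91.8 FPKM in pacing and 106, 90.0 and 66.8 FPKM in control, where P2 alone was low. RPL23A, with no record found for its identifier, had 114, 54.6 and 117 FPKM in pacing and 76.6, 180 and 48.9 FPKM in control. The spread of both was wide and the groups overlapped. RPS27 on chromosome X had 18.3, 24.2 and 14.1 FPKM in pacing and 23.8, 16.3 and 25.0 FPKM in control, also overlapping. Besides RPLP1 and RPL10L, RPL11 on chromosome 4, RPL13, RPL37A and RPL38 were listed at 0 in all 6 libraries. RPL34 stayed under the minimum, with 1.03, 0.251 and 0 FPKM in pacing and 0.481, 0 and 0.394 FPKM in control. These values of 0 belong to 6 entries of which 5 lie off the annotated chromosome, and they do not show that the protein's mRNA is absent.

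Leaving out C4 lowered most fold changes. Of 46 tested entries on the annotated chromosome, C4 was the lowest library for 32 (69.6%), beside 43.3% of all genes tested. Over these entries, the level in C4 had a median of 0.722 of the mean of C1 and C2. The median of that ratio was 0.673 over all genes tested and 0.876 over genes with a mean of 100 FPKM or more. Over the 46 entries the ratio was lowest for RPL3 (0.324), RPS15 (0.425) and RPL8 (0.453) and highest for RPS12 (1.08). For the pacing group, the mean was 0.870 of the mean of C1 and C2 as the median over entries, between 0.424 for RPL22L1 and 1.06 for RPS2.

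Without C4, 6 of the 55 entries (10.9%) had a positive log2 fold change, against 36.1% of all genes tested, and 15 had turned from positive to negative. Their median was −0.19, while the median of all genes tested was −0.16 in the same fit and that of genes with a mean of 100 FPKM or more was −0.03. With C4 included, these medians were −0.03 for the members, −0.03 for all genes tested and 0.03 for the abundant genes, so the members moved with the genes at large and further than the abundant genes, a class that holds 39 of the 55. None of the 55 passed the adjusted threshold (limma, smallest adjusted p = 0.223), beside 0.173% of all genes tested. At an unadjusted p under 0.05, 5 were lower, beside 12.7% of all genes tested, and 1 was higher, beside 2.6%. Those lower were RPL3, RPL8, RPL22L1, RPS20 and RPL37 on the unplaced scaffold, with log2 fold changes of −0.73, −0.57, −1.14, −0.45 and −1.19, and RPL37 on chromosome 6 was higher by 1.07. For RPL3 the unadjusted p was 0.0110 and the adjusted p = 0.223 (limma). The pacing values lay below both C1 and C2 for 19 entries, beside 26.7% of all genes, and above both for 2 entries, beside 7.8%. The large subunit entries on their annotated chromosome had a median of −0.21 and the small subunit entries one of −0.19.

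**Figure D3:**
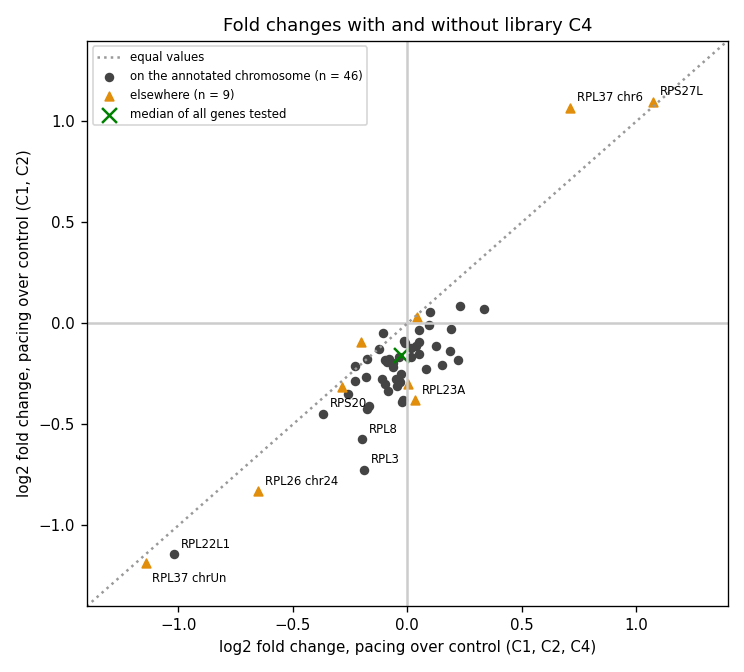
Log2 fold change of each of the 55 tested entries, pacing over control, with all 6 libraries (horizontal axis) and without C4 (vertical axis); circles are entries on the annotated chromosome, triangles those elsewhere, and the cross is the median of all genes tested. Most circles lie under the dotted line of equal values, as does the cross, at −0.03 with C4 and −0.16 without it.

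Together the 62 entries held 3.47%, 3.66% and 4.10% of the summed FPKM in P1, P2 and P3 and 3.76%, 3.49% and 2.45% in C1, C2 and C4. The means were 3.74% ± 0.325 in pacing and 3.23% ± 0.692 in control (SD, n = 3 each), and the ranges overlapped. Without the mitochondrially encoded mRNAs, whose listing differs between libraries, the shares were 5.77% ± 0.162 in pacing and 5.51% ± 0.809 in control. Without C4, the control mean was 3.62% ± 0.187 over all genes (SD, n = 2), 0.118 percentage points under that of the pacing group. With both C4 and the mitochondrially encoded mRNAs left out, the direction turned, with 5.77% in pacing and 5.90% in control, a difference of −0.131 percentage points.

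The factors that assemble ribosomes in the nucleolus were read from the same fit. Of 59 tested ribosome biogenesis factors, 58 had a negative log2 fold change, with a median of −0.57, against −0.03 for the ribosomal protein entries and for all genes tested. None passed the adjusted threshold with all 6 libraries (limma, smallest adjusted p = 0.879) or without C4 (limma, smallest adjusted p = 0.0635). With all 6 libraries, 26 were lower in pacing at an unadjusted p under 0.05, beside 3.02% of all genes tested, and 0 were higher. For 34 of the 59 every pacing value lay below every control value, beside 6.14% of all genes tested. Without C4 the number was 53, beside 26.7%. NOP58, a core protein of the box C/D particles that methylate ribosomal RNA, had 15.3, 13.7 and 14.5 FPKM in pacing and 29.9, 31.6 and 22.3 FPKM in control, a log2 fold change of −0.89 ± 0.21 (SE). GNL3, a nucleolar GTPase also called nucleostemin, had 20.1, 19.4 and 17.2 FPKM in pacing and 37.5, 44.1 and 28.9 FPKM in control, a log2 fold change of −0.91 ± 0.22 (SE). Both genes had every pacing library below every control library. EFL1, which frees the large subunit from an assembly factor in its last step, was the exception, with 4.22, 4.31 and 6.23 FPKM in pacing and 4.89, 4.93 and 4.08 FPKM in control.

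The number of biogenesis factors lower at an unadjusted p under 0.05 depended on the libraries. It was 43 without C4, where the list median was −0.75, and 11 without C1 and 15 without C2, and 16, 10 and 8 without P1, P2 and P3. Of the 11583 genes tested, 350 were lower at that p with all libraries and 1468 without C4. Without C1 and C2 these were 233 and 242, and without P1, P2 and P3 they were 339, 142 and 115. After rescaling to the same summed FPKM, 6 biogenesis factors were lower, beside 123 of all genes tested. There the median of the list was −0.37 and that of all genes 0.18. Over all alternatives the list median stayed 0.46 to 0.60 below the median of all genes on the log2 scale. The summed FPKM of 8 adipocyte markers was also apart between the groups, at 175 to 225 in pacing and 397 to 1080 in control. So was that of the 10 atrial cardiomyocyte markers, at 7960 to 16001 in pacing and 68.7 to 7181 in control. The part of these marker differences in the values of the biogenesis factors was not tested.

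Other parts of the translation machinery lay between these lists. Of 27 tested subunits and factors of RNA polymerases I and III, which transcribe ribosomal and transfer RNA, 22 had a negative log2 fold change, with a median of −0.27. At an unadjusted p under 0.05, 4 were lower, beside 3.02% of all genes tested, and 0 higher. Without C4 the median was −0.47 and 8 were lower, beside 12.7%. None was lower at that p after rescaling, without C1 or without P3, and 1 was without P1 or without P2. POLR1E, of polymerase I, had 19.1, 20.6 and 15.2 FPKM in pacing and 31.4, 23.3 and 40.8 FPKM in control. Of 37 tested initiation factors, 33 had a negative value, with a median of −0.26. Of these 37, 6 were lower at an unadjusted p under 0.05, beside 3.02% of all genes tested, and 0 higher. Without C4 the median was −0.37 and 12 were lower, beside 12.7%. The number was 1 after rescaling, 2 without C1 or without P3, 3 without P2 and 4 without P1. EIF4A1, the helicase that unwinds the start of the mRNA, had 189, 137 and 120 FPKM in pacing and 316, 328 and 212 FPKM in control. EIF5, which triggers hydrolysis of GTP at the start codon, had 127, 109 and 104 FPKM in pacing and 161, 247 and 198 FPKM in control. For POLR1E, EIF4A1 and EIF5 all pacing values lay below all control values. None of these genes passed the adjusted threshold (limma).

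Of 9 tested elongation and termination factors, 3 had a positive value, with a median of −0.10, and 1 was lower at an unadjusted p under 0.05, beside 3.02% of all genes tested. Without C4 the median was −0.39 and 2 were lower, beside 12.7% of all genes tested, and without C1, C2 or P1 the median was above 0. The 1 lower with all libraries was ABCE1, which splits ribosomes after termination, with 35.2, 38.8 and 32.6 FPKM in pacing and 63.4, 52.7 and 56.8 FPKM in control. The pacing values lay below all control values. Of 16 tested mRNAs with a 5′ TOP motif that code for other proteins, 4 had a positive value, with a median of −0.22, and 0 passed an unadjusted p of 0.05 (limma) in either direction. Without C4 their median was −0.37 and 2 were lower, beside 12.7% of all genes tested. Without C2 also 2 were lower, beside 242 of the 11583 genes tested.

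Of 31 tested genes of the mTORC1 pathway and regulators of TOP mRNAs, 10 had a positive value, with a median of −0.15. At an unadjusted p under 0.05, 2 were higher, beside 2.52% of all genes tested, and 1 was lower, beside 3.02%. Without C4 this turned to 0 higher and 6 lower, beside 2.6% and 12.7%, with a median of −0.34. The number higher was 2 without C1, 1 without C2 or without P1, and 0 without P2 or without P3, and the number lower was 2 without P1 and at most 1 without C1, C2, P2 or P3. RRAGD, a Rag GTPase that brings mTORC1 to the lysosome, had 18.4, 23.1 and 24.6 FPKM in pacing and 18.4, 10.9 and 12.7 FPKM in control. EIF4EBP2, which blocks initiation until mTORC1 phosphorylates it, had 8.96, 8.81 and 10.2 FPKM in pacing and 23.0, 21.1 and 11.7 FPKM in control. For EIF4EBP2 all pacing values lay below all control values, as they did for 4 of the 31 genes, beside 6.14% of all genes tested. For 2 of the 31 all pacing values lay above all control values, beside 4.9%. RRAGD was among these, with P1 and C1 nearly equal. The proteins of the mitochondrial ribosome, which are encoded in the nucleus by other genes, had 28 positive values among 60 tested, with a median of −0.04. At an unadjusted p under 0.05, 1 was lower, beside 3.02% of all genes tested, and 0 were higher, beside 2.52%. Without C4 the median was 0.04, with 3 lower, beside 12.7% of all genes tested, and 1 higher, beside 2.6%. After rescaling to the same summed FPKM, which moved the median of all genes tested to 0.18, the list medians were 0.12 for elongation and termination factors, 0.0051 for the TOP mRNAs, 0.07 for the mTORC1 list and 0.18 for the mitochondrial ribosome.

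**Figure D4:**
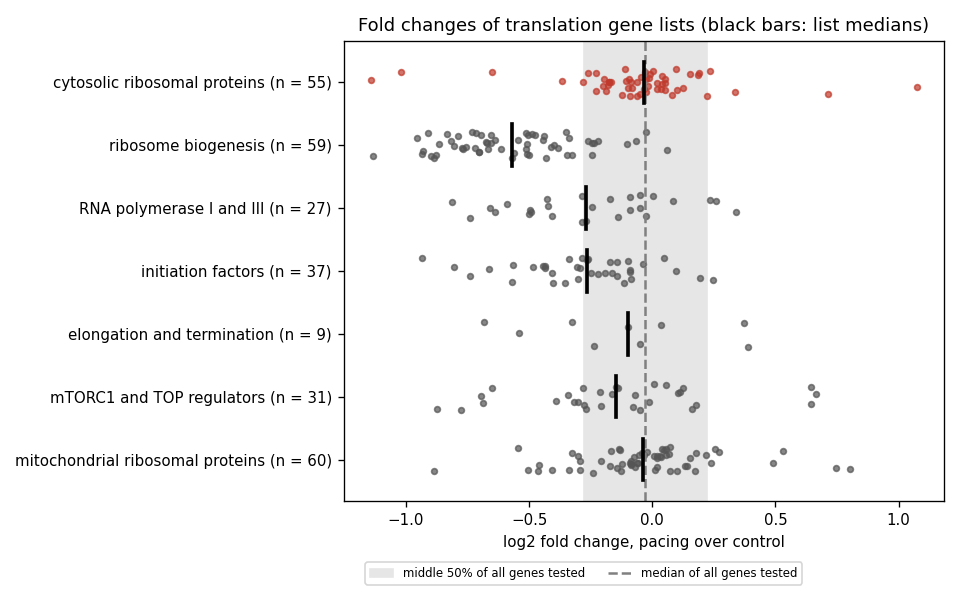
Log2 fold change, pacing over control, of each tested gene in 7 lists, with black bars at the list medians, the median of all genes tested as a dashed line and the middle 50% of all genes tested in grey. The ribosomal protein entries (red) centre on the dashed line at −0.03, as do those of the mitochondrial ribosome at −0.04, and the biogenesis factors lie to the left, with a median of −0.57.

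In the circRNA table, none of the 15990 circRNAs was assigned to the symbol or identifier of any of the 62 entries. Within the loci of the members, 17 back-splice junctions were listed, and all were assigned to a gene that shares the locus, such as CACNA1C, LIAS or MTIF2.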

How the data were processed

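Total RNA libraries of 3 pacing and 3 control dogs were analysed; replicates are separate dogs. The authors deposited FPKM values per gene (submitters' notes: cutadapt 1.9.3, HISAT2, Cufflinks and Cuffdiff, canFam3; strand setting not given in the sources used here). The authors also deposited circRNA junction read counts (Bowtie2), which were only described. Of the per-sample columns of both tables, 12 were not analysed: normalized circRNA values and columns headed Counts in the mRNA table. The authors' own comparison columns and the lncRNA and miRNA tables were not used. Loci are spans given by the authors and may hold several genes. Depth is not stated in the sources used here, and the columns headed Counts were not used to estimate it. Precision was read from the spread between libraries.

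Testing used genes whose FPKM averaged at least 1, on log2(FPKM + 1) with limma 3.58.1 (R 4.3.3, with trend, 2-sided, Benjamini-Hochberg), again without C4. Fold changes are on that scale, which understates those of low genes. Members and lists were chosen with earlier results of these data known. Members named were the 6 with the smallest p in each direction, the 6 most abundant, paralogs, entries at 0, the 4 that C4 moves most, and RPS6, RPLP0, RPL32 and RPS19; other lists give up to 2 per direction. Values of some genes that this rule takes are not reported here. Alternatives were pseudocounts of 0.1 and 0.01, filters, scalings, limma without trend, C4 counted as pacing and each library left out. Centring on the median member, medians over annotated chromosomes, leaving out RPS19BP1 and the alternatives for biogenesis factors were added after seeing the data. The code was tested on simulated data.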

Additional observations from a re-analysis of the deposited data

How the results depend on the processing

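No member passed the adjusted threshold under any alternative run. The median log2 fold change of the members was −0.03 in the main fit. It ran from −0.26 with C4 counted as pacing to 0.19 after rescaling to the same summed FPKM. The number of positive members ran from 6 to 46. Where a sign or count moved, the cause was not tested. Members higher at an unadjusted p under 0.05 were 2 after rescaling to the same summed FPKM and 1 with C4 counted as pacing, and 0 to 1 with each library left out. Members lower were 1 to 5 with each library left out (5 without C4). All genes past the adjusted threshold were 5 with no filter, where 19856 genes were tested, 26 with C4 counted as pacing, and 3 to 20 with each library left out (20 without C4). Biogenesis factors lower were 6 after rescaling to the same summed FPKM, 41 with C4 counted as pacing and 8 to 43 with each library left out. Of the 11583 genes tested, 123, 1641 and 115 to 1468 were lower in the same runs. The difference in the share of summed FPKM, pacing minus control, was 0.51 percentage points and −0.206 with C4 counted as pacing.

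The log2 fold changes that changed sign were uncalled. After rescaling to the same summed FPKM they were 0.19 for RPL23, 0.035 for RPL3, 0.20 for RPL32, 0.14 for RPL7, 0.026 for RPL8, 0.055 for RPLP0, 0.17 for RPS19 and 0.012 for RPS27 on chromosome X. After centring on the median gene they were 0.023 for RPL23, 0.027 for RPL32 and 0.0022 for RPS19. After quantile normalization they were 0.055 for RPL23, 0.19 for RPL32 and 0.092 for RPS19. With C4 counted as pacing they were −0.60 for RPL23A, −0.18 for RPL26 on chromosome 5, −0.44 for RPS15, −0.043 for RPS2, 0.014 for RPS27 on chromosome X, −0.34 for RPS27 on chromosome 7 and −0.085 for RPS6.

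With each library left out in turn, the lowest and highest values were −0.29 and 0.17 for RPL23, −0.38 and 0.55 for RPL23A, −0.027 and 0.36 for RPL26 on chromosome 5, −0.73 and 0.10 for RPL3, −0.25 and 0.14 for RPL32, −0.17 and 0.040 for RPL7. They were −0.57 and 0.034 for RPL8, −0.41 and 0.047 for RPLP0, −0.18 and 0.51 for RPS15, −0.27 and 0.082 for RPS19, −0.14 and 0.42 for RPS27 on chromosome 7, −0.031 and 0.16 for RPS6. The lowest came without C4 for all of these, and the highest without C1, or without C2 for RPL23A and RPS15. No paired analysis was made, because the 2 groups are separate dogs and no pairing between them is described.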
